A study of Mus musculus with 2 samples.

Results

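Translation initiation and elongation factors are the soluble proteins that bring ribosome, messenger RNA and aminoacyl-tRNA together and move the ribosome along the message. The set was formed by name: every gene whose symbol starts with Eif or Eef followed by a digit and whose RefSeq accession labels a probe that is no control, leaving out the Eif2ak kinases, Eif2s3x and Eif2s3y. It holds 62 genes, out of 20654 genes that could be named on the array, read by 88 probes. Of these genes 59 gave a signal well above background on both arrays, and the other 3 are described on their own. RNA came from osteoclasts, the multinucleated cells that resorb bone, grown from bone marrow of female C57BL/6 mice. Adherent monocyte/macrophage precursors obtained with the growth factor M-CSF were then kept in M-CSF plus RANKL, which induces osteoclasts. The groups were Dnmt3a knockout (1 array) and wild type (1 array), hybridised in 1 colour to Agilent mouse arrays. Dnmt3a encodes a de novo DNA methyltransferase, and its mutant allele, the cells that lost it and the ages of the mice are not given in the sources used here.

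In initiation, eIF2 delivers the initiator tRNA to the small ribosomal subunit and is recharged with GTP by eIF2B. The eIF4F complex (the cap-binding protein eIF4E, the scaffold eIF4G and the helicase eIF4A) recruits the message, and eIF3 holds the assembly together while eIF1, eIF1A and eIF5 select the start codon. In elongation, eEF1A delivers aminoacyl-tRNAs and eEF2 moves the ribosome by a codon. Cells tune this machinery at known points: phosphorylation of eIF2 lowers initiation, 4E-binding proteins sequester eIF4E, and the kinase Eef2k inactivates eEF2. Osteoclast precursors grow and fuse as they differentiate, and make large amounts of secreted and lysosomal protein.

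All differences below are log2 of the processed signal, knockout minus wild type, after each array was set to its own 75th percentile. Feature Extraction gives each spot an error, which carried to the difference came to 0.20 to 0.21 for every translation factor measured on both arrays (the scanner error). It was nearly the same for dim and bright factors. For these 59 factors "within the scanner error" is therefore close to a fixed cutoff, and not a spread measured for each gene. Where a probe was spotted at least 8 times, its differences had a median SD of 0.07 (259 probes). Each genotype has 1 array and so no replicate, no test across samples and no p-value, and neither error covers the variation between cultures or mice. Scaling to the spike-in RNA instead lowers every difference by 0.53 (8 spike-in probes, 0.30 to 0.72), which moves the median of all measured genes to -0.52 and puts all 59 translation factors below 0. Every sign below is therefore relative to the bulk of the genes on the array, and each of the 59 factors that lies above 0 is negative with spike-in scaling.

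The processed signal of Dnmt3a was 1822 on the knockout array and 7042 on the wild type array, 3.79-fold lower (difference -1.92, 1 probe). Whether that probe lies in the deleted part of the gene is not known here. Of 59305 spots, 59.7% were well above background on the knockout array and 52.7% on the wild type array, and 0 spots were saturated. Markers of the labelled cell type were present: all 11 osteoclast markers were measured, with a median difference of -0.58 and 11 of 11 below 0. Their summed signal was 988167 on the knockout array and 1160790 on the wild type array. Most of that sum came from Acp5 and Ctsk, both within the scanner error. Acp5 read 442434 on the knockout array and 451856 on the wild type array (-0.0005), and Ctsk 356772 and 413300 on the same arrays (-0.18). Over all measured genes 48.1% lay below 0. The other lists moved too. All 10 measured macrophage markers lay above 0 (median 0.71, summed signal 504745 on the knockout array and 422243 on the wild type array), as did all 10 neutrophil markers (median 0.47, 275632 on the knockout array and 228670 on the wild type array). With spike-in scaling 8 of the macrophage markers and 4 of the neutrophil markers stayed above 0. All 8 measured stromal and osteoblast markers lay below 0 (median -0.84, 39499 on the knockout array and 67072 on the wild type array), and Runx2 was not well above background on either array. Of the lymphocyte markers 7 of 8 were measured (median 0.18, -0.35 with spike-in scaling, Cd8a not well above background). Their part in the differences of the translation factors was not tested, and in RNA of a whole culture fewer cells of a type and less RNA per cell cannot be told apart.

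The translation factors differed little between the genotypes. Their median difference was -0.06 over the 59 measured genes, against 0.01 over all 13479 genes measured on both arrays, and they ranged from -0.48 to 0.35. Below 0 lay 40 of 59 (67.8%), where the share over all measured genes was 48.1%. Differences of at least 0.322 in size were called, a small fold used as a working threshold. By that rule 3 were lower in the knockout, Eef1e1, Eif4e and Eif2b3, against 13.8% of all measured genes. By the same rule 1 was higher, Eif4e3, against 15.8% of all measured genes. At 2-fold 0 were lower and 0 higher, against 0.727% and 0.824% of all measured genes. Of the 59 differences 46 were within the scanner error (78.0%, against 54.4% of all measured genes).

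The factors are among the brighter probes, so the same counts were taken at or above the median signal. There 37 of 50 translation factors lay below 0, against 47.1% of the measured genes at that level. At that level 2 were called lower in the knockout, against 10.2% of the genes, and 0 were called higher, against 14.1%. At 2-fold the counts were 0 and 0, against 0.104% of the genes lower and 0.401% higher. The SD of the difference was 0.14 over these 50 factors, against 0.30 over the 6740 genes. The distribution of the factors was thus narrower than that of the array, and lay a little to the negative side of it. These shares describe 2 arrays and 1 chosen list.

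**Figure D1:**
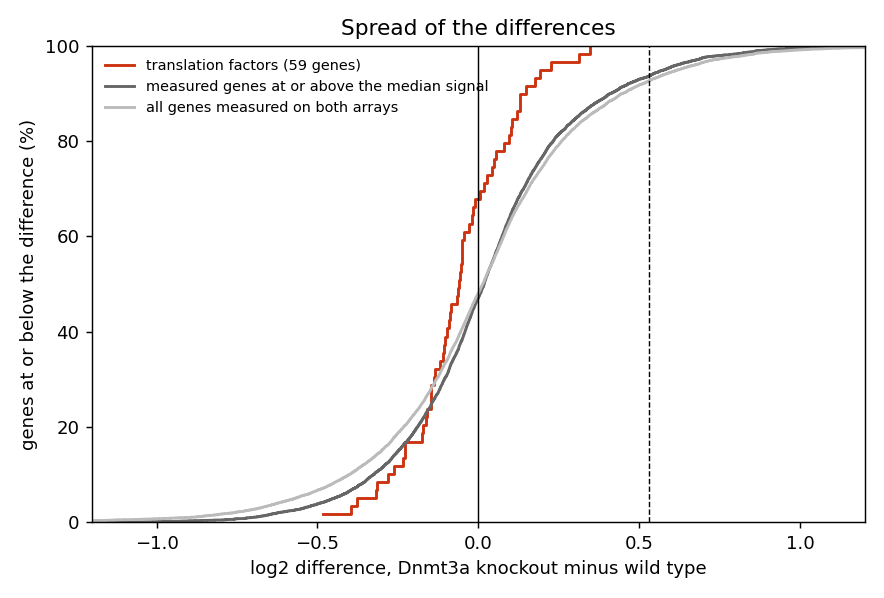
Cumulative share of genes (vertical axis, %) at or below each log2 difference, knockout minus wild type (horizontal axis), for the 59 translation factors, the measured genes at or above the median signal and all 13479 genes measured on both arrays. The curve of the factors is the steepest and crosses 0 (solid line) at 67.8%, and lies wholly left of the dashed line at 0.53, which is the zero point with spike-in scaling.

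**Figure D2:**
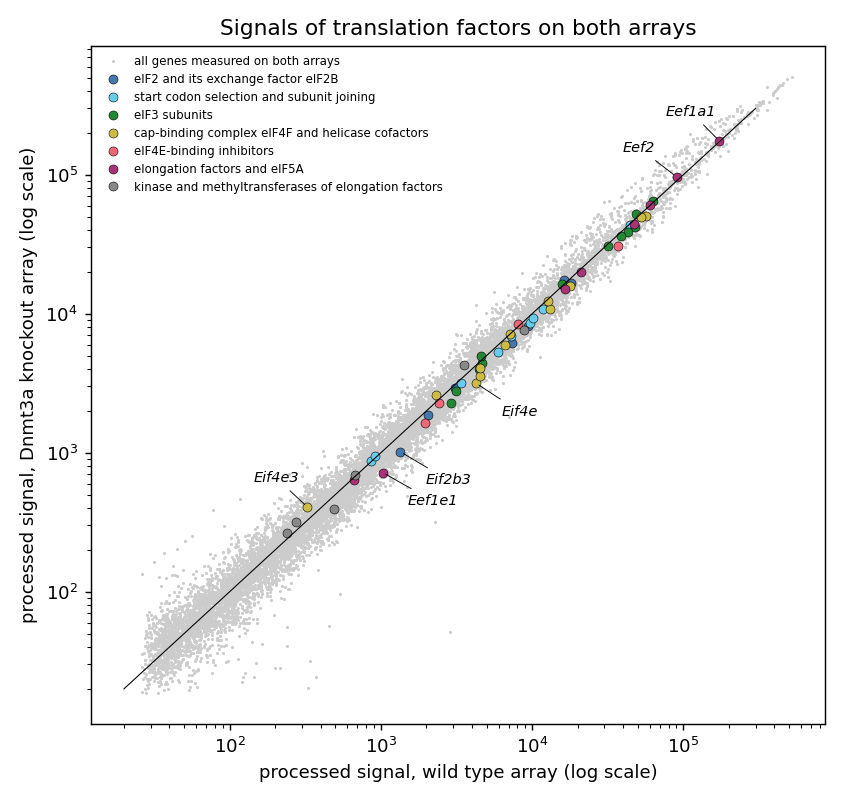
Processed signal on the knockout array (vertical, log scale) against the wild type array (horizontal, log scale). Grey points are all genes measured on both arrays, coloured points the 59 translation factors by role, and the line marks equal signals. The factors span knockout signals of 264 to 175175 and follow the line closely, with Eef1e1, Eif2b3 and Eif4e below it and Eif4e3 above it.

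The 7 genes of eIF2 and its exchange factor eIF2B had a median of -0.10. Below 0 were 6 of them, against 48.1% of all measured genes. The signal of Eif2b3, the gamma subunit of eIF2B, was 1015 on the knockout array and 1345 on the wild type array. The difference was -0.38, and its other probe gave -0.38 as well. The other subunits of the exchange factor were not called. Eif2b5, the epsilon subunit that carries the catalytic domain, had a signal of 1877 on the knockout array and 2052 on the wild type array (-0.10). Eif2b4 was at -0.17, and Eif2b1 read 2916 on the knockout array and 3110.4 on the wild type array (-0.06). Eif2b2, with 17469.9 on the knockout array and 16290.4 on the wild type array, was the single one above 0 (0.13, and -0.40 with spike-in scaling).

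Eif2s1 encodes eIF2 alpha, the subunit whose phosphorylation controls initiation. Its brighter probe read 6154 on the knockout array and 7365 on the wild type array, a difference of -0.23, slightly past the scanner error. Its dimmer probe read 377 and 387 on the same arrays and gave -0.01, so the probes do not give the same size. Eif2s2, eIF2 beta, was at -0.09 with a further probe at 0.01.

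The factors of start codon selection and subunit joining had the narrowest range of the roles, with 9 measured genes between -0.15 and 0.09, all within the scanner error, and a median of -0.07. Eif5, which makes eIF2 hydrolyse its GTP, was lowest: 8545 on the knockout array and 9655 on the wild type array (-0.15, its other probe -0.10). Eif1b followed, with 5342 on the knockout array and 5918 on the wild type array (-0.12), and Eif1, the guardian of start codon choice, was at -0.01. Eif1a and Eif1ax, near-identical copies whose probes may share transcripts, were at -0.07 and -0.05. Eif6, which keeps the ribosomal subunits apart, read 10853 on the knockout array and 11751 on the wild type array (-0.08, its other probe -0.18).

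Above 0 in that group were Eif2a and Eif2d, factors of less usual initiation routes. Eif2a read 871 on the knockout array and 864 on the wild type array (0.04, and -0.49 with spike-in scaling). Eif2d read 949 on the knockout array and 907 on the wild type array (0.09, and -0.43 with spike-in scaling). Eif2d offers a direct view of the measurement error because 1 of its probes was spotted 10 times on each array. Those spots read 864 to 940.1 on the knockout array and 844 to 945 on the wild type array, ranges that overlap almost fully. Their differences averaged 0.05 ± 0.06 (SD over 10 spots of 1 probe, not replicates of the genotype), from -0.05 to 0.13. Eif1ad, which resembles eIF1A, depended on the probe: -0.09 by the brighter and -0.44 by the dimmer, the second largest gap within a gene.

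Of the 13 subunits of eIF3, all measured on both arrays, 8 lay below 0, against 48.1% of all measured genes, with a median of -0.05. None was called, with 0 lower and 0 higher, against 13.8% and 15.8% of all measured genes. Eif3j1 encodes the loosely attached subunit, and stood apart at the low end. It read 2289 on the knockout array and 2909.7 on the wild type array (-0.32, just inside the threshold), and its other probe gave -0.30. The next lowest, the large scaffold subunit Eif3a, read 2759 on the knockout array and 3155 on the wild type array (-0.16), and Eif3l was close to it (-0.16).

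The remaining core subunits were near 0: Eif3c at -0.06 and Eif3b at -0.05, with Eif3d, the subunit known to bind the cap of some messages, at -0.02. At the high end were Eif3i, with 4983 on the knockout array and 4589 on the wild type array (0.15, and -0.38 with spike-in scaling), and Eif3k, with 51962.5 on the knockout array and 48449 on the wild type array (0.13, with 3 probes from 0.13 to 0.30, and -0.40 with spike-in scaling). Eif3k and Eif3l bind each other at the edge of the complex, and their differences had opposite signs in this scaling, 0.13 and -0.16, both within the scanner error.

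The cap-binding group had the widest range of the roles, from -0.40 to 0.35 (12 measured genes, median -0.14). Of these genes 9 were below 0, against 48.1% of all measured genes. Eif4e, the protein that binds the cap, was the lowest of them. It read 3166 on the knockout array and 4254 on the wild type array, 1.32-fold lower (-0.40), and its second, dimmer probe read 356 on the knockout array and 485 on the wild type array (-0.42). Leaving out spike-in scaling, the alternatives put it between -0.44 and -0.39, and spike-in scaling at -0.93. Eif4e2, which binds the cap without joining eIF4G, depended on the probe. Its brightest read 12306 on the knockout array and 12747 on the wild type array (-0.02), and a dimmer probe gave -0.30. A further probe was not well above background on the knockout array (15.8 on the knockout array and 31.0 on the wild type array). Eif4e3 was the single translation factor called in the other direction, with 407 on the knockout array and 327 on the wild type array (0.35, 1.27-fold higher, 1 probe, and -0.18 with spike-in scaling). The differences of Eif4e3 and Eif4e lay 0.74 apart (scanner error of the gap 0.29). Scaling by 1 factor per array leaves that gap unchanged. Quantile normalization put Eif4e3 at 0.34 and Eif4e at -0.44, and normexp put them at 0.25 and -0.44.

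Eif4g2 encodes a scaffold that lacks the part which binds eIF4E. It read 3571 on the knockout array and 4540 on the wild type array (-0.32, just inside the threshold, 1 probe). The scaffold Eif4g1 read 15808.5 on the knockout array and 17867 on the wild type array (-0.15). The probes of Eif4g3 disagreed most in the whole set: the brighter gave -0.14 and the dimmer 0.32 (-0.20 with spike-in scaling).

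Of the helicases, Eif4a1 read 50359.9 on the knockout array and 56938 on the wild type array (-0.15). Eif4a2 was lower, with 10739.5 on the knockout array and 13162 on the wild type array (-0.26), and -0.43 by its other probe. Eif4a3, which serves in the exon junction complex, read 2587 on the knockout array and 2310.3 on the wild type array (0.19, and -0.34 with spike-in scaling), while its near-identical copy Eif4a3l1 was at -0.14, and a probe may read both copies. The helicase cofactors Eif4b (0.02, 3 probes from -0.03 to 0.07, -0.51 with spike-in scaling and -0.01 after quantile normalization) and Eif4h (-0.05) were near 0. By its only or brightest probe every eIF4G was thus below 0, as were Eif4a1 and Eif4a2, with Eif4e lowest. Of these, Eif4g1, Eif4g3 and Eif4a1 were within the scanner error. In the same group Eif4b, Eif4a3 and Eif4e3 lay above 0.

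Promoter sequence was not used by the naming rule. Of the 10 cap-binding genes with a RefSeq window (GRCm38.p6), 4 are shown because they hold the E-box CACGTG, a motif known to be bound by MYC and USF proteins. The motif reads the same on both strands and was chosen after the expression values were known. Each line gives the 250 bases before an annotated start, read on the gene's own strand, with the E-box in capitals. They lie at chr3:138527018-138527267 (plus strand) for Eif4e, chr16:20672477-20672726 (plus strand) for Eif4g1, chr11:69672424-69672673 (minus strand) for Eif4a1 and chr5:134639410-134639659 (minus strand) for Eif4h.
Eif4e: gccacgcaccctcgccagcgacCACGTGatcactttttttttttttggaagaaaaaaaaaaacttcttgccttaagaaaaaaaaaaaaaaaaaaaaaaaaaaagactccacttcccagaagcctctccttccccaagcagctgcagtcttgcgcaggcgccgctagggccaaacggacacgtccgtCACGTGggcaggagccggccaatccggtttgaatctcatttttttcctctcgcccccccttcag
Eif4g1: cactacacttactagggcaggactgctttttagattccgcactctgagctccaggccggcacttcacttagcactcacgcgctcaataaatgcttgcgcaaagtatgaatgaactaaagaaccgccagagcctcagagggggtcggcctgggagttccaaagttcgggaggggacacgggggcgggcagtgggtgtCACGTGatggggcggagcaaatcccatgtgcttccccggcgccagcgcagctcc
Eif4a1: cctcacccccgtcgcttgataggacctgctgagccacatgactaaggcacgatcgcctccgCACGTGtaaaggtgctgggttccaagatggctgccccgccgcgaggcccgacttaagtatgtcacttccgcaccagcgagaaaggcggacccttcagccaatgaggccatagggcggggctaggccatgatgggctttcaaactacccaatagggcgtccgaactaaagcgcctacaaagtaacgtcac
Eif4h: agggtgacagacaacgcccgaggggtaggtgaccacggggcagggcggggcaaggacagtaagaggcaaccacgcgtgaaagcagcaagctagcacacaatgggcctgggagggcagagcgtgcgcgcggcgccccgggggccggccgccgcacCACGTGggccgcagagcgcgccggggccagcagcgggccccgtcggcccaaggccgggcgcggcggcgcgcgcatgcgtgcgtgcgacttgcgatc

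Eif4e has 2 windows, of which 1 is shown. The window shown holds 2 copies, starting 228 and 64 bases before its start. The other genes shown hold 1 copy each, at 54 (Eif4g1), 189 (Eif4a1) and 96 (Eif4h) bases. Over the 48 translation factors with a window, 13 (27.1%) held the motif in at least 1 window. This compares with 9.60% of the 10797 genes measured on both arrays that have a window, and with 6.86% of all 27025 genes that have one. Counted by window, it was 24.2% of the 62 windows of the factors and 6.02% of all 32851 windows. The windows of the factors are richer in G and C (median 61.8%, against 59.2% over the measured genes and 52.4% over all windows). Among all windows within the interquartile range of the factors' G and C content 8.41% held the motif. Genes with several windows have more chances to hold it. CpG sites, the targets of DNA methyltransferases, numbered 19 per window of the factors (median), 15 per measured gene and 6 per window over all windows. The motif itself contains a CpG, and the comparison by G and C content did not match the windows for CpG.

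The motif did not separate the differences. The 13 factors with it had a median of -0.10 (9 below 0, from -0.40 to 0.18), and the 33 measured factors without it -0.06 (22 below 0, from -0.48 to 0.22). A match of letters is a description and does not show that a factor binds there.

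Of the 4 inhibitors that hold eIF4E, 3 lay below 0 (median -0.14), against 48.1% of all measured genes. The single one above 0, Eif4ebp2, was within the scanner error. Eif4ebp1, the 4E-binding protein controlled by mTOR, read 30795 on the knockout array and 36795 on the wild type array (-0.23, 1 probe). Eif4ebp2, its close relative, read 8465 on the knockout array and 8045 on the wild type array (0.10, and -0.43 with spike-in scaling). These 2 differences lay 0.33 apart, with a scanner error of the gap of 0.29. Eif4enif1, which carries eIF4E into the nucleus and into P-bodies, read 1641 on the knockout array and 1972 on the wild type array (-0.24), and Eif4ebp3 was at -0.05. Eif4e and its binding protein Eif4ebp1 were thus both on the negative side.

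The elongation factors proper hardly differed, although Eef1e1 gave the largest difference of all. Eef1a1, which delivers aminoacyl-tRNAs and has many processed pseudogenes, read 175175 on the knockout array and 172864 on the wild type array (0.05, its other probe -0.07). Its sign depends on the probe, and was negative with spike-in scaling and after quantile normalization. Eef2, the translocase, read 96299.5 on the knockout array and 90486 on the wild type array (0.12, and -0.41 with spike-in scaling). The subunits that recharge eEF1A lay at 0.03 (Eef1b2, -0.50 with spike-in scaling), -0.04 (Eef1g) and -0.06 (Eef1d), so the exchange complex and its substrate moved by less than the scanner error. Eef1b2 and Eef1a1 turned negative after quantile normalization.

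Eef1e1 encodes a scaffold protein of the multi-tRNA synthetase complex that is named for its resemblance to an eEF1 subunit. It read 720.1 on the knockout array and 1027 on the wild type array, 1.40-fold lower (-0.48, 1 probe). The alternatives other than spike-in scaling put it between -0.50 and -0.43, and spike-in scaling at -1.01. It was the lowest of the 59 values. Eif5a, which relieves stalled ribosomes, read 15107.5 on the knockout array and 16584 on the wild type array (-0.10), and Eif5a2 was at -0.03.

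Enzymes that modify the elongation factors were the group with a median above 0 (0.12, and -0.41 with spike-in scaling). Of the 6 genes 4 lay above 0 and 2 below, where 48.1% of all measured genes lay below 0. The 4 genes above 0 were methyltransferases. Eef1akmt1, which methylates a lysine of eEF1A, read 4290.1 on the knockout array and 3524 on the wild type array (0.31, just inside the threshold, and -0.22 with spike-in scaling). Eef2kmt, which methylates eEF2, read 316 on the knockout array and 276 on the wild type array (0.22, and -0.30 with spike-in scaling). Eef1aknmt was at 0.18 (-0.35 with spike-in scaling) and Eef1akmt2 at 0.06 (a further probe 0.29, and -0.47 with spike-in scaling). Eef1akmt4 was the exception among them, with 7639.9 on the knockout array and 8803 on the wild type array (-0.17), and shares its locus with a read-through transcript. Eef2k, the kinase that inactivates eEF2, read 393 on the knockout array and 487 on the wild type array (-0.28, its other probe -0.21). Both its probes were lower by more than the scanner error.

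**Figure D3:**
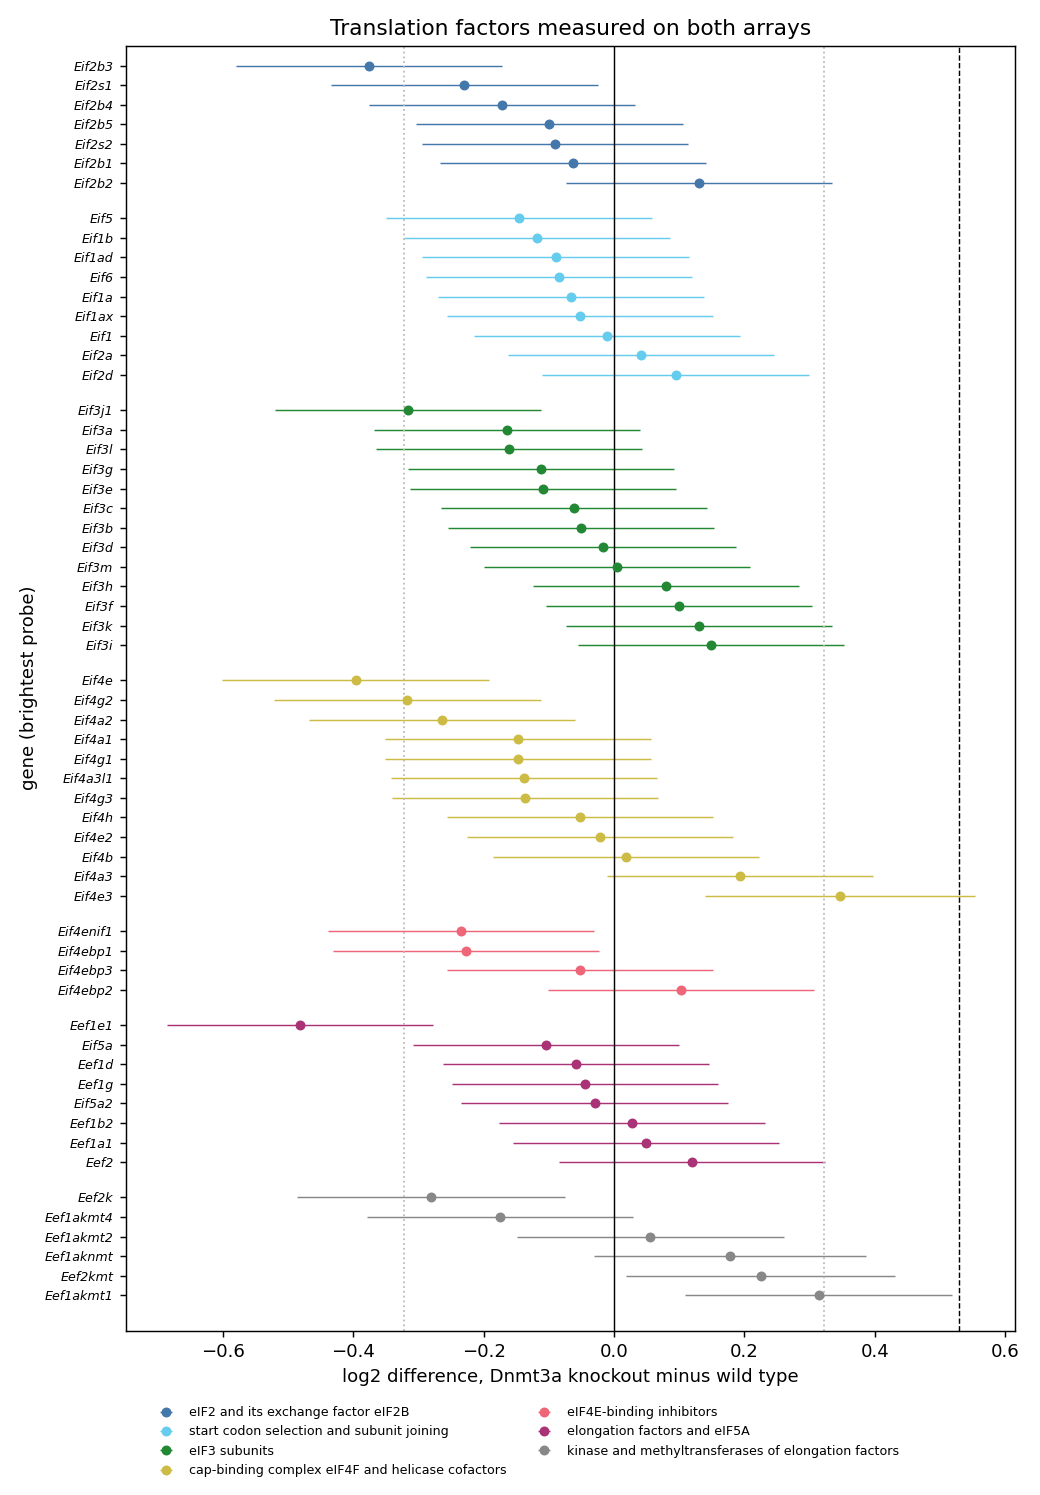
Log2 difference, knockout minus wild type, of the 59 translation factors measured on both arrays (horizontal axis), by role and from lowest to highest within it. Points are the brightest probe of a gene, bars its scanner error, dotted lines the call threshold of 0.322 in each direction, and the dashed line at 0.53 the zero point with spike-in scaling, which all points lie left of. Eef1e1, Eif4e and Eif2b3 lie left of the lower dotted line and Eif4e3 right of the upper one.

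For 22 translation factors several probes were measured, which gives a check beyond a single probe. The probe sequences were not available, so whether probes of a gene overlap is not known here. In 18 of them all probes had the same sign, the median spread between the lowest and highest probe was 0.09, and it was under 0.1 for 13 genes. The low values of Eif4e, Eif2b3 and Eif3j1 were among the best supported in this respect, with spreads of 0.02, 0.01 and 0.01. Probes of both signs were found for Eif2s2, Eif4b, Eef1a1 and Eif4g3. Probes of a gene share the RNA of the same array, so their likeness says nothing about replicate cultures.

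**Figure D4:**
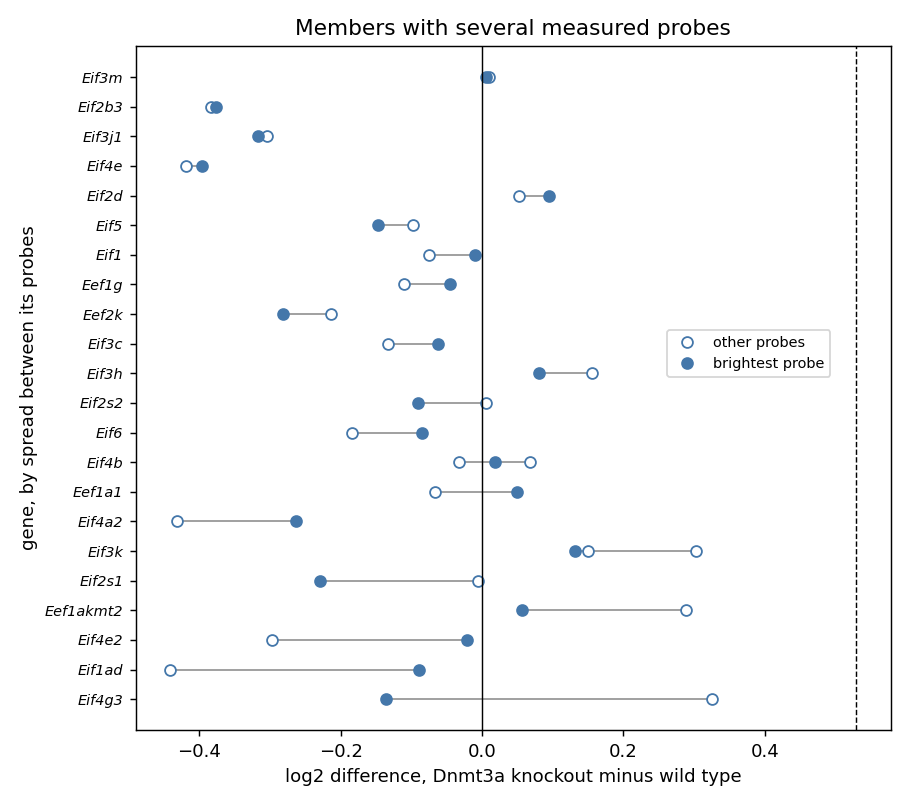
Log2 difference, knockout minus wild type (horizontal axis), of every measured probe of the 22 translation factors with several of them, ordered by spread. Filled points are the brightest probe, open points the others, and the dashed line at 0.53 is the zero point with spike-in scaling, which all probes lie left of. Eif3m, Eif2b3, Eif3j1 and Eif4e have the closest probes and Eif4g3 the widest gap, from -0.14 to 0.32.

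The 3 factors not measured on both arrays were Eef1a2, Eif5b and Eif4e1b. Eef1a2, the form of eEF1A known from muscle and neurons, was well above background on the knockout array only (28.9 on the knockout array and 18.9 on the wild type array). The lowest signal well above background in wild type was 25.8, yet Eif5b at 26.8 was not well above it there. No lower bound on the difference of Eef1a2 can therefore be given. The nominal difference was 0.64 with a scanner error of 0.54, and 0.11 with spike-in scaling. Eif5b, the factor of subunit joining, has a single probe here, which read 26.9 on the knockout array and 26.8 on the wild type array. Its difference was 0.04, far within its scanner error of 0.43, and -0.49 with spike-in scaling. That probe was barely above background on 1 array, so it says little about Eif5b. Eif4e1b, an eIF4E relative of oocytes, was not well above background on either array.

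Regulators and partners outside the set were read from 5 lists with 57 genes, all measured on both arrays. Among the eIF2 alpha kinases and genes of the stress response, 5 of 11 lay above 0 and 6 below (median -0.05). The share below 0 over all measured genes was 48.1%. Eif2ak2, the interferon-induced kinase PKR, read 2156 on the knockout array and 1468 on the wild type array (0.58, 1 probe). It was the single gene of the 5 lists that stayed above 0 with spike-in scaling, at 0.06. That value is within its scanner error of 0.20, and the single spike-in probes ran from 0.30 to 0.72, on both sides of 0.58. Eif2ak3, the kinase of endoplasmic reticulum stress, was at -0.30, and Atf4, the transcription factor made when eIF2 is phosphorylated, at -0.26 (its other probe -0.10). Trib3 followed Eif2ak2 at 0.26 (-0.26 with spike-in scaling). By the call rule 1 gene was higher and 0 were lower in this list, against 15.8% and 13.8% of all measured genes.

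The median of the 14 genes that signal to eIF4F was 0.00, and 7 of them were below 0, against 48.1% of all measured genes. Pdcd4, an inhibitor of the helicase eIF4A, was the single one called lower and 0 were called higher, against 13.8% and 15.8% of all measured genes. It read 2442 on the knockout array and 3651 on the wild type array (-0.55, 1 probe). Larp1, which represses messages of the translation machinery, was at -0.29 (its other probe -0.20). The eIF4E kinase Mknk1 was highest at 0.30 (-0.23 with spike-in scaling), followed by Tsc2 at 0.21 (-0.32 with spike-in scaling).

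Termination, recycling and poly(A)-binding factors had 10 of 14 genes below 0 (median -0.15), against 48.1% of all measured genes. By the call rule 2 were lower and 0 higher, against 13.8% and 15.8% of all measured genes. Abce1, which splits ribosomes after termination, read 2147 on the knockout array and 3213 on the wild type array (-0.55). Pabpc4, a poly(A)-binding protein, read 1523 on the knockout array and 2255 on the wild type array (-0.54). Each rests on 1 probe. At the high end Gspt2 (0.21) and Paip1 (0.19, its other probe -0.20) were negative with spike-in scaling (-0.32 and -0.34).

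By their brightest probes all 8 enzymes that modify eIF5A and eEF2 lay below 0 (median -0.13, and -0.01 without the first block of array rows), where the share over all measured genes is 48.1%. Other probes lay above 0 for 3 of them, Dph3 (0.34), Dhps (0.04) and Dph1 (0.00), genes named for this after their values were seen. Dph6 and Dph5, enzymes of the diphthamide residue of eEF2, were called lower and 0 genes higher, against 13.8% and 15.8% of all measured genes. Dph6 read 468 on the knockout array and 702 on the wild type array (-0.55), and Dph5 1983 on the knockout array and 2583 on the wild type array (-0.35). At the high end Dph7 was at -0.08 and Dph1 at -0.02.

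Mitochondrial and selenocysteine factors had 8 of 10 genes below 0, against 48.1% of all measured genes. Their median of -0.18 moved to -0.10 without the first block of array rows. Of the 10 genes 3 were called lower and 1 higher, against 13.8% and 15.8% of all measured genes. Those lower were the mitochondrial elongation factors Gfm1 and Tsfm, and Gfm2, which acts in mitochondrial ribosome recycling. Gfm1 read 10375.5 on the knockout array and 13849 on the wild type array (-0.39), Tsfm 807 on the knockout array and 1048 on the wild type array (-0.35), and Gfm2 1083 on the knockout array and 1384 on the wild type array (-0.32, its other probe 0.02). Mtif3, a mitochondrial initiation factor, was the exception, with 726 on the knockout array and 582 on the wild type array (0.35, its other probe 0.24, and -0.18 with spike-in scaling), ahead of Mtrf1 at 0.02 (-0.51 with spike-in scaling).

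**Figure D5:**
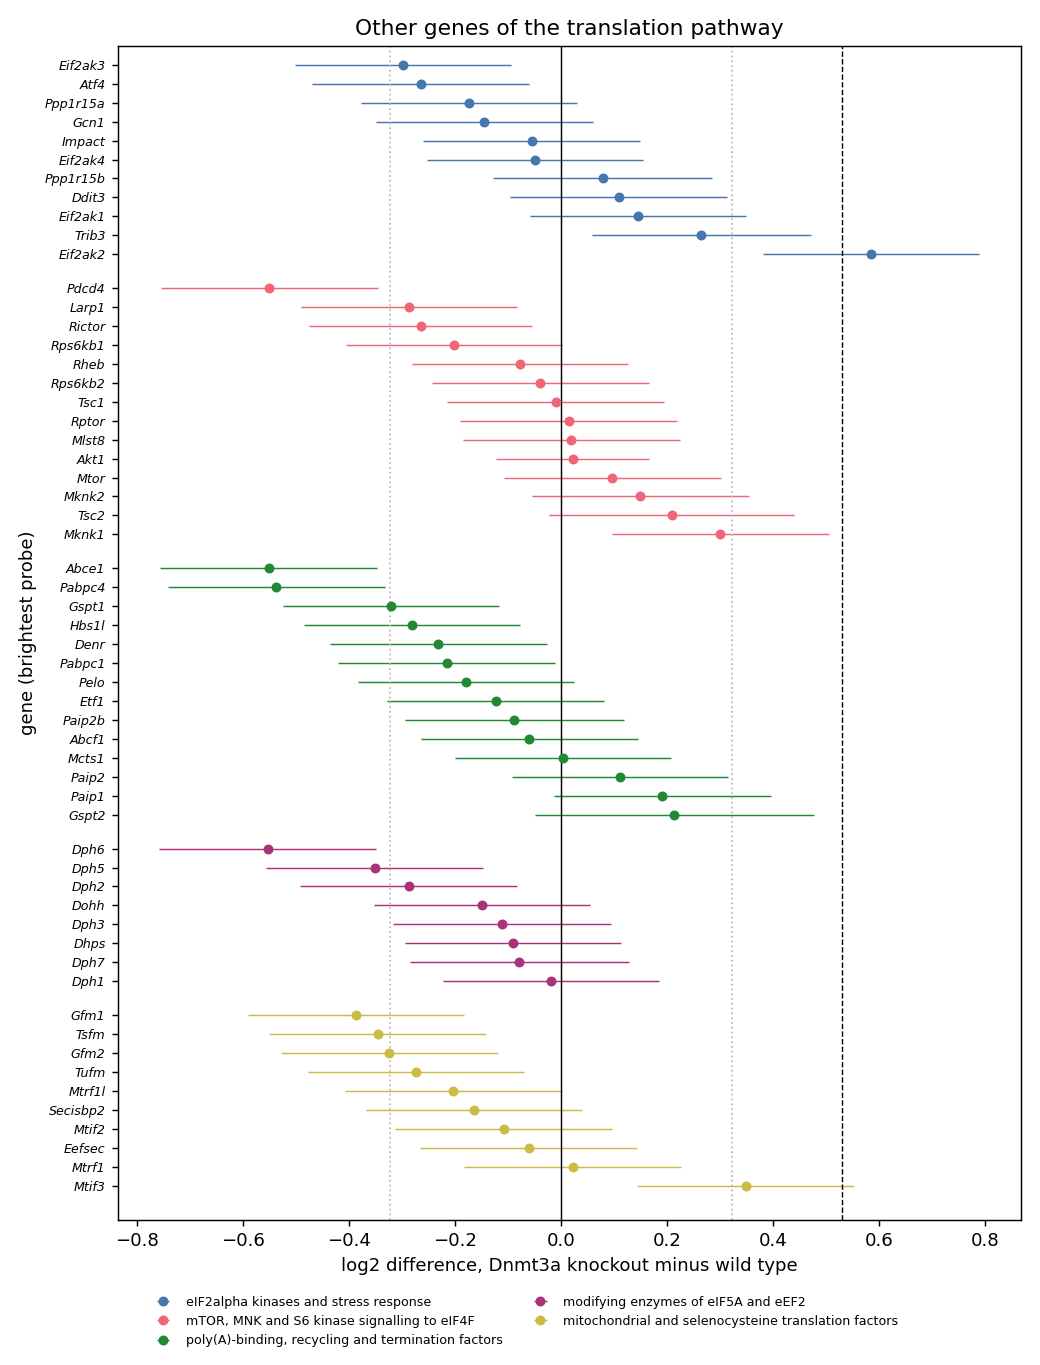
Log2 difference, knockout minus wild type (horizontal axis), of the 57 other genes of the translation pathway in their 5 lists. Points are the brightest probe, bars its scanner error, dotted lines the call threshold of 0.322 in each direction, and the dashed line at 0.53 the zero point with spike-in scaling. Eif2ak2 (0.58) is the single point right of the dashed line, and Pdcd4, Abce1, Pabpc4 and Dph6 lie lowest, between -0.55 and -0.54.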

How the data were processed

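RNA of 1 Dnmt3a knockout and 1 wild type osteoclast culture was hybridised to 1 Agilent array each. The authors' deposited scanner files give spot intensity with background and spatial trend removed, made with Feature Extraction 10.10.1.1 (Agilent), per the file headers (mm9 probe positions). The submitters' processing notes name version 9.1, and which made the files is not settled. The deposited series table holds the same linear intensity times 1 factor per array (1.54 knockout, 1.55 wild type, with column medians of 66.5 and 59.6). It is neither centred nor a ratio, and how the factor was chosen is unknown.

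Processed signals were divided by the 75th percentile of their own array (control spots left out) and put on the log2 scale. Spots marked uneven or outlying on either array were left out (172 on the knockout and 157 on the wild type array), repeated spots were averaged, and accessions were matched to RefSeq genes (GRCm38.p6, names only), which named 27224 of 55649 probes. The files hold no mean signal column, so normexp (limma 3.58.1, R 4.3.3, offset 50) used the median signal, as a departure from the plan. The brightest probe stood for its gene, and a gene was measured if that probe was well above background on both arrays. The arrays share a slide and a scan. All members of each role were open to naming, with signals for the 2 highest and 2 lowest of a role, those called and some key factors. Of the other lists, those called and the 2 at each end were named. Members and lists were chosen with earlier results of these data known. Calculations (Python 3.11.15, numpy 2.4.6, pandas 2.3.3) were tested on simulated data. The planted differences were larger than those of the translation factors, without variation between cultures. That test therefore checks the calculation only, and not whether differences of the size reported here can be recovered. The number of arrays limits the precision. The result of 1 marker list is not reported here. Alternatives were scaling to the median, to quantiles or to the spike-in RNA, normexp, the deposited table, no filter on dim probes, the median over probes, and leaving out the first block of array rows.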

Additional observations from a re-analysis of the deposited data

How the results depend on the processing

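Leaving out spike-in scaling, the median of the translation factors stayed between -0.09 and -0.06, and the medians of all roles and lists moved by less than the scanner error of 0.20, though some near 0 changed sign. The eIF2 alpha kinases and stress genes went to 0.08 with the median over probes and 0.04 after normexp, the elongation factors to 0.01 without the first block of array rows, and signalling to eIF4F to -0.01 with median scaling and -0.04 after quantile normalization. Without that block the eIF4E-binding inhibitors were at -0.05, the enzymes of eIF5A and eEF2 at -0.01, the mitochondrial and selenocysteine factors at -0.10 and termination and recycling at -0.17. With spike-in scaling every median moved by 0.53, to -0.59 over all factors, -0.63 for eIF2 and eIF2B, -0.60 for start codon selection, -0.58 for eIF3, -0.67 for the cap-binding group, -0.67 for the eIF4E-binding inhibitors, -0.57 for the elongation factors, -0.41 for their modifying enzymes, -0.58 for the eIF2 alpha kinases, -0.53 for signalling to eIF4F, -0.68 for termination and recycling, -0.66 for the enzymes of eIF5A and eEF2, and -0.71 for the mitochondrial and selenocysteine factors. Eif4e3 then turned to -0.18. The number of factors called lower, 3 in the text, was 5 when scaled to the median of the measured genes and 5 after quantile normalization, where Eif4g2 and Eif3j1 joined Eef1e1, Eif4e and Eif2b3. It was 4 with the median over probes, where Eif4a2 joined at -0.35, and 56 with spike-in scaling, with 1 factor (Eef1e1) 2-fold lower. After normexp Eif2b3 was at -0.30 and 2 factors remained, Eef1e1 and Eif4e. Of all 13479 measured genes, 1863 were called lower in the main setting, 1961 with median scaling, 2196 after quantile normalization and 1333 after normexp. Spike-in scaling called 10162 of them lower, with 1009 genes 2-fold lower, and the median over probes 1840 of 13486. The number of factors called higher, 1 in the text, was 0 with spike-in scaling and 0 after normexp, where Eif4e3 was at 0.25. It was 2 with no filter on dim probes. Among all measured genes 2127 were called higher in the main setting, 237 with spike-in scaling, 1685 after normexp and 4460 of 20654 with no filter. Without the first block of array rows 48 factors were measured and the bright probe of Eif4e2 was lost, which put that gene at -0.29. The median over probes put Eif4g3 at 0.09. Values near 0 changed sign under single settings: Eif3m (median scaling), Eif4b, Eif3m, Eef1b2 and Eef1a1 (quantile), Eif4e2 and Eif1 (normexp), and Eef1a1 (median over probes). No paired analysis was possible because each genotype has 1 array. Signals near background limit Eif5b, Eef1a2 and Eif4e1b, and whether any difference here would recur in further cultures is not known from these arrays.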
